A study of Homo sapiens with 38 samples.

Results

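The comparison asked what 1 µM GSK436 added to 10 nM GSK212 in 16R6-4, a clone of A375 melanoma cells that had acquired resistance to GSK436. It set 3 arrays of the clone given both drugs, called the combination here, against 3 arrays of the clone given 10 nM GSK212 alone, chosen by the cell name and treatment in their titles. These are 6 of the 38 one-colour expression arrays of the series. GSK436 (GSK2118436, dabrafenib) inhibits mutant BRAF kinase, and GSK212 (GSK1120212, trametinib) inhibits MEK, the kinase that BRAF activates and that itself activates ERK. All cells grew in RPMI1640 with 10% fetal bovine serum and were exposed for 24 h. Other groups used beside them were the clone given 10 nM GSK212 with 0.1 µM GSK436 (3 arrays), 1 µM GSK436 alone (3 arrays) or DMSO (2 arrays), and parental A375 cells given 10 nM GSK212 with 1 µM GSK436 (3 arrays) or 10 nM GSK212 alone (3 arrays). The resistant cells were 1 clone, so a difference from parental cells cannot be told apart from one between clones, and no label tells if replicate arrays stem from separate cultures, so that p-values measure only the spread between these samples.

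ATF4 is a transcription factor whose translation rises when kinases such as GCN2, PERK or PKR phosphorylate the initiation factor eIF2, in what is called the integrated stress response. Its targets make, import and charge amino acids and include feedback regulators such as TRIB3. ERK, at the end of the RAF and MEK cascade, drives transcription of its own phosphatases and Sprouty inhibitors, of AP-1 factors and of cyclin D1, and the level of these genes is used as a readout of pathway output in melanoma cells.

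Signals were MAS5 values on a linear scale, and all arrays of the series had been scaled to 1 trimmed mean. Median signals were 31.27 to 32.46 on the combination arrays and 27.74 to 35.23 with GSK212 alone, and arrays correlated as closely between the groups (r = 0.892 to 0.913 over 9 pairs) as within them (0.891 to 0.916 over 6 pairs). RNA quality moved with the groups: the actin control probe sets at the transcript's 3' and 5' ends gave a ratio, higher where RNA is degraded, of 3.72, 8.64 and 12.1 for the combination, against 27.4, 13.7 and 27.1 for GSK212 alone. The GAPDH ratio was 1.04, 1.21 and 1.39, against 1.63, 1.32 and 1.80, and the groups overlapped in this ratio. Counts with the log2 actin ratio as a covariate therefore stand beside the main gene groups below. Of the melanoma markers, MITF was present (958 to 1460 with the combination, 1190 to 1260 with GSK212 alone), but SOX10, the neural crest factor, read 2.11 to 4.30 with the combination and 3.40 to 19.8 with GSK212 alone. Over all 20 arrays of the clone SOX10 ran from 1.96 to 21, and over the 18 parental arrays from 427 to 1410. MIA, a secreted melanoma protein, ran from 4.89 to 73.2 in the clone and from 1390 to 3990 in parental cells. The pigment cell genes PMEL, MLANA, TYR and TYRP1 read at most 57.7 and S100B, a calcium-binding protein, at most 23.8 on any array of the clone, and of the 8 markers measured MITF alone was above 73.2 there. Parental cells were also low in these genes, with at most 78.2 for the pigment cell genes and 85.5 for S100B. MITF ran from 864 to 1680 in the clone and from 283 to 734 in parental cells. Summed signal of 10 leukocyte markers was 240 to 264 for the combination and 175 to 257 for GSK212 alone. Of the 10, 0 were called by limma and 2 had an unadjusted p under 0.05 (11.2% of all genes did). With the actin ratio as a covariate 1 was called.

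Promoter windows of 5 genes that rose or fell are printed because they carry TGATGNAA or TTTCCCGC, sequence elements counted below. Each window has 300 bases around a transcription start (RefSeq, GRCh38.p14), and capitals mark the element. ASNS (chr7:97872359-97872658, minus strand), CHAC1 (chr15:40953221-40953520, plus strand), AARS1 (chr16:70289457-70289756, minus strand) and SLC1A5 (chr19:46784765-46785064, minus strand) hold TGATGNAA, letters shared by known ATF4 composite sites, or its reverse complement. The element begins at -68, -209, -187 and -97 from the start in these 4 windows, in the order given. GINS2 (chr16:85688905-85689204, minus strand) holds the reverse complement of TTTCCCGC, an E2F-type element, at -31.
ASNS: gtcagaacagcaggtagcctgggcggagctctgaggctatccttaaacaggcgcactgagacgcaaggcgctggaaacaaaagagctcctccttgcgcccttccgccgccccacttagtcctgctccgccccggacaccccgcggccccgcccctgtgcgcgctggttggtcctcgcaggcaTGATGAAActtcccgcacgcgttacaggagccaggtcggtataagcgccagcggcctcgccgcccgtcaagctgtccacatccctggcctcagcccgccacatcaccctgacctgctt
CHAC1: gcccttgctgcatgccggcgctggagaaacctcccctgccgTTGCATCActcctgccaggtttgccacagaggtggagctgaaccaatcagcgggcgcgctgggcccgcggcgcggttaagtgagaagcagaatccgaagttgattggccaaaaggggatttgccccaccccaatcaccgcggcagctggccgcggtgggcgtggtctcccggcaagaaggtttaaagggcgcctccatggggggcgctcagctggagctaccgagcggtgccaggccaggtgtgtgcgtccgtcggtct
AARS1: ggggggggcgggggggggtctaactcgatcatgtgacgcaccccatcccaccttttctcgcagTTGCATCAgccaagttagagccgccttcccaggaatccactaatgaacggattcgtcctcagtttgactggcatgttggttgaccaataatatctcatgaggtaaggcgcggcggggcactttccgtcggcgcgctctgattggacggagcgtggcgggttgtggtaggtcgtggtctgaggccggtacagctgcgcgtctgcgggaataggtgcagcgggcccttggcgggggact
SLC1A5: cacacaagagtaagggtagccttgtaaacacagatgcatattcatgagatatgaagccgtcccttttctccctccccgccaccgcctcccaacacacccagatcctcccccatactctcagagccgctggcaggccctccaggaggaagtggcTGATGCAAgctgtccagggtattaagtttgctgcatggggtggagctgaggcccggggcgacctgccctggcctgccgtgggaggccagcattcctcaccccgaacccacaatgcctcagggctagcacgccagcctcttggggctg
GINS2: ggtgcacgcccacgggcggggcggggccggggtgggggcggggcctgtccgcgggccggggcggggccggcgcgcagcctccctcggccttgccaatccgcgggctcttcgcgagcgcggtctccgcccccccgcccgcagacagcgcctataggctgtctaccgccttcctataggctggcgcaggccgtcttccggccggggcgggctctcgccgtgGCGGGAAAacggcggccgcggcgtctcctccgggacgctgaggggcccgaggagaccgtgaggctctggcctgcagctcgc
Both strands were searched. TGATGNAA was found for 9 of the 55 genes called higher that had a listed promoter (16.4%), among them GARS1, CEBPG and SLC1A4, against 3.51% of measured genes with a promoter and 3.62% of all 35116 listed windows. It was found for 0 of the 24 genes called lower. TTTCCCGC was found for 2 of those 24 genes (GINS2 and SERTAD4, 8.33%), against 2.78% of measured genes and 1.63% of all windows. Of the 55 genes called higher, 0 held TTTCCCGC, so no window of a called gene held both TGATGNAA and TTTCCCGC. An AP-1 element, TGANTCA, was also searched. It was found for 5 of the 24 genes called lower (20.8%) and 5 of the 55 called higher (9.09%), against 8.01% of measured genes and 7.71% of all windows. A match is a description of these letters, not of binding.

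Adding GSK436 raised genes of amino acid supply and of the ATF4 response and lowered a smaller set that included ERK output and cell cycle genes. Of 18063 genes, 65 were called higher (0.36%) and 35 lower (0.194%) with the combination than with GSK212 alone, 100 in all (0.554%). A call required that the adjusted p fall below 0.05 and the log2 fold change reach 1 in size. At the adjusted p alone the counts were 121 and 129, and the median change of all genes was 0.02. In all 100 called genes the 3 combination arrays lay wholly above or below the 3 GSK212 arrays, as did those of 11.1% of all genes above and 11% below. Of the 65 genes called higher, 25 were in the lists of ATF4 targets, amino acid transporters or aminoacyl-tRNA synthetases. The count rose to 248 with the actin ratio as a covariate, where 84 of the 100 genes were still called. It was 69 without arrays whose actin ratio was above 20, which left 1 array of GSK212 alone, and 45 of the 100 were then called.

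**Figure D1:**
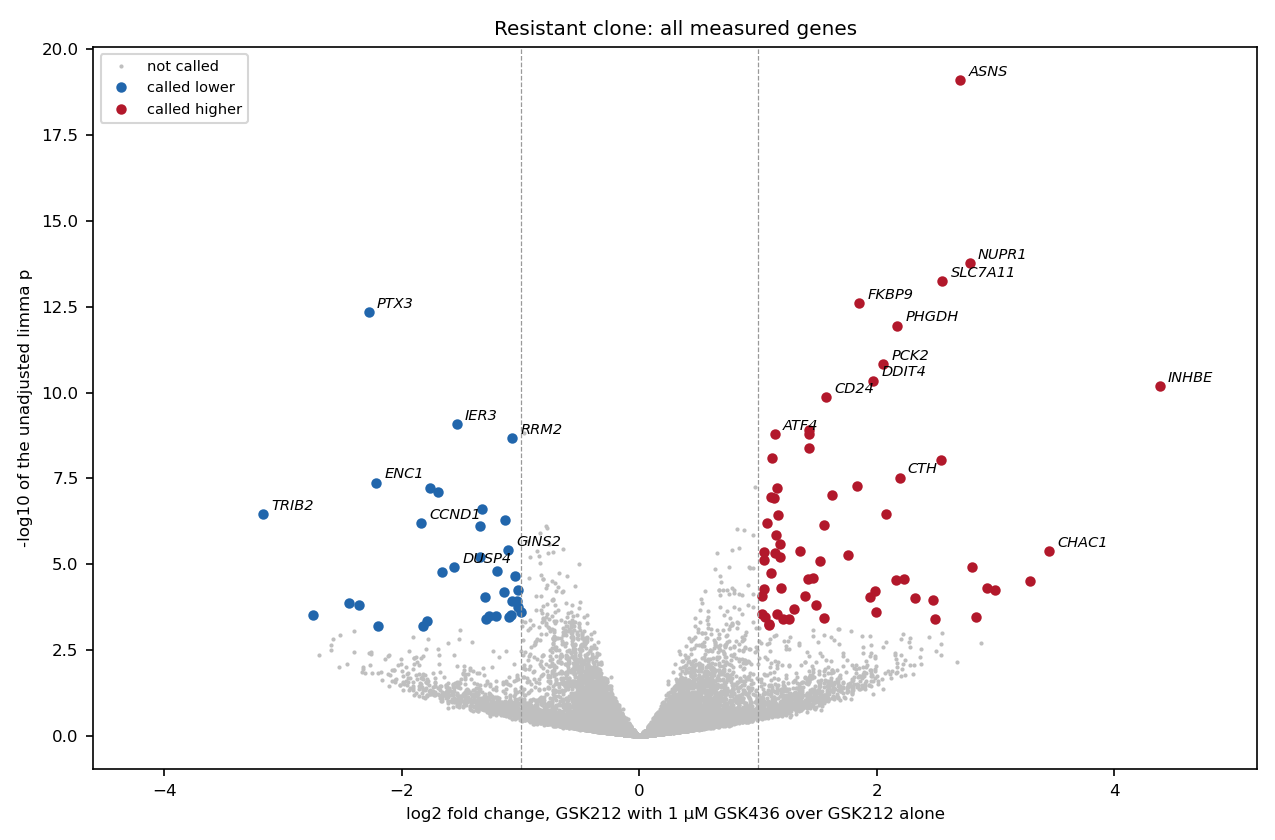
Log2 fold change (x axis, combination over GSK212 alone) against -log10 of the unadjusted limma p (y axis) for each of 18063 genes, with the 65 genes called higher in red, the 35 called lower in blue and dashed lines at a log2 fold change of 1 and -1. ASNS stands at the top with a log2 fold change of 2.70, and PTX3 is the uppermost of the genes called lower, at -2.28.

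ATF4 targets formed the largest group that moved. Of 31 measured members of the ATF4 and integrated stress response list, 18 were called higher and 0 lower, against 0.36% and 0.194% of all genes, and 29 had a positive change, with a median of 1.16. ASNS, asparagine synthetase, had signals of 4500, 4980 and 5050 with the combination, against 729, 737 and 759 with GSK212 alone. The groups did not overlap. ASNS rose by 2.70 ± 0.14 on the log2 scale (SE; adjusted p = 1.43e-15), a 6.53-fold ratio of mean signals. INHBE, an activin-family subunit induced in stressed cells, had 1060, 1330 and 1390 with the combination, against 48.2, 66.5 and 58.9 with GSK212 alone. It had the largest change of all called genes, 4.38 ± 0.46 (adjusted p = 1.32e-07). NUPR1, a small stress-induced nuclear protein, had 2040, 2190 and 2260, against 312, 291 and 337 with GSK212 alone, and rose by 2.78 ± 0.21 (adjusted p = 1.52e-10). CHAC1, which degrades glutathione, had 260, 219 and 244, against 43.7, 9.08 and 17.4 with GSK212 alone. Its GSK212 arrays lay near background, and its change of 3.45 ± 0.63 (adjusted p = 0.00136) had a wide error.

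**Figure D2:**
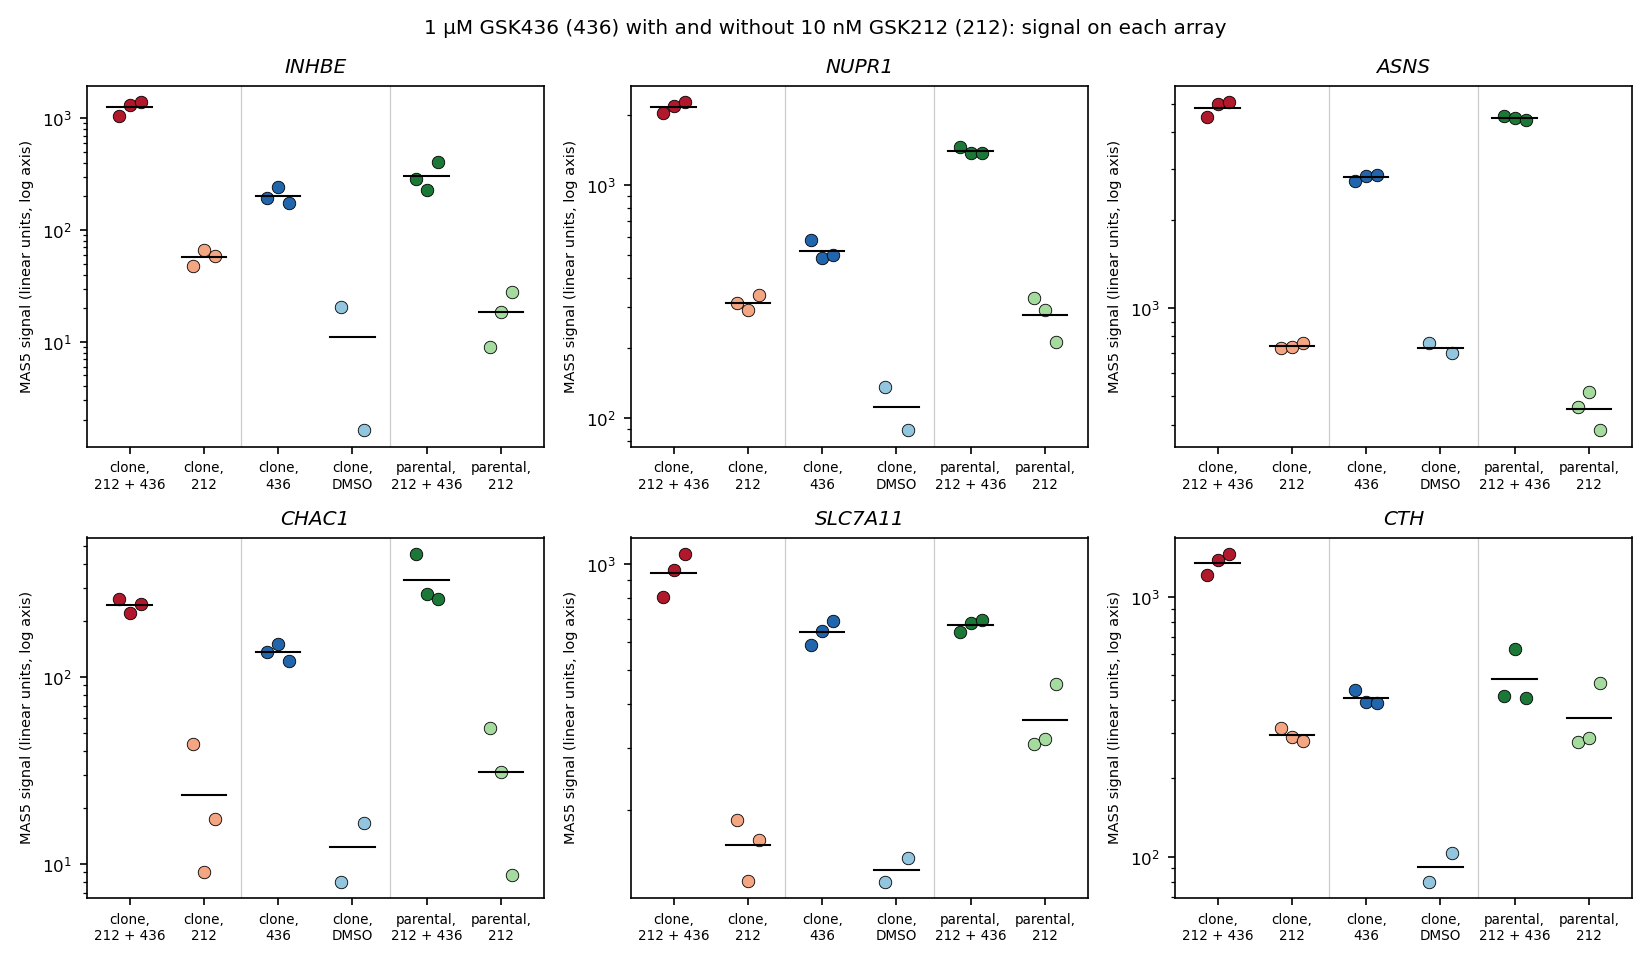
MAS5 signal (linear units on a log axis) of 6 genes on each array, as points with the group mean as a line, for 1 µM GSK436 with 10 nM GSK212 over GSK212 alone in the clone, 1 µM GSK436 over DMSO in the clone, and the combination over GSK212 alone in parental cells. ASNS read 4500 to 5050 with the combination in the clone, against 729 to 759 with GSK212 alone, and CTH shows the clone's combination arrays apart from all others, at 1210 to 1460.

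Most enzymes of amino acid synthesis in the ATF4 list were called higher. Serine synthesis has 3 steps, and all 3 enzymes were called: PHGDH, the entry step, rose by 2.17 ± 0.20 (adjusted p = 3.37e-09), PSAT1 by 1.17 ± 0.19 (0.000197 adjusted) and PSPH by 1.18 ± 0.22 (0.0017 adjusted). PHGDH read 2350, 2270 and 2520 with the combination, against 503, 567 and 513 with GSK212 alone, with no overlap. CTH and CBS, which make cysteine from homocysteine, rose by 2.19 ± 0.31 and 2.08 ± 0.33. CTH read 1210, 1380 and 1460 with the combination, against 313, 288 and 278 with GSK212 alone. PYCR1 of proline synthesis rose by 1.05 ± 0.23, ALDH1L2 of mitochondrial folate metabolism by 2.54 ± 0.33 and PCK2, mitochondrial phosphoenolpyruvate carboxykinase, by 2.05 ± 0.20. MTHFD2, another mitochondrial folate enzyme, changed by 0.58 ± 0.15 (adjusted p = 0.0436), below the fold threshold. Other enzymes of the list did not pass the test: SHMT2, which splits serine, changed by 0.54 ± 0.27 (adjusted p = 0.457) and ALDH18A1, at the start of proline synthesis, by -0.19 ± 0.14 (adjusted p = 0.714). When the probe sets of each gene were averaged, PSPH (0.71, adjusted p = 0.349), PSAT1 (1.68, 0.0569) and CBS (1.36, 0.0679) lost their calls, which left PHGDH alone of the serine enzymes. PSAT1 was at 0.97 with the actin ratio as a covariate. PYCR1 lost its call without any of 3 single arrays (replicates 1 and 3 of GSK212 alone and replicate 3 of the combination), at 0.91 to 0.95.

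Several regulators of the response were called higher and others were not. ATF4 itself, on the transcript level, read 6870, 7000 and 8070 with the combination, against 3640, 2980 and 3320 with GSK212 alone. It rose by 1.14 ± 0.14 (adjusted p = 1.94e-06), and its protein was not measured. DDIT3, the factor CHOP, rose by 1.43 ± 0.18 and CEBPG, a C/EBP partner of ATF4, by 1.15 ± 0.20. TRIB3, a pseudokinase that restrains ATF4, rose by 1.07 ± 0.17. DDIT4 and SESN2 both restrain mTORC1, the amino acid-sensing growth kinase: DDIT4 rose by 1.97 ± 0.21 and SESN2 by 1.16 ± 0.28. SESN2 lost its call without any of 4 single arrays (replicates 1 and 2 of GSK212 alone, replicates 1 and 3 of the combination), with adjusted p of 0.0757 to 0.233. CEBPB changed by 0.65 ± 0.12 (adjusted p = 0.00143), below the fold threshold. ATF5, a relative of ATF4, changed by 0.01 ± 0.27 (adjusted p = 0.997) and PPP1R15A, which directs a phosphatase to eIF2, by 0.20 ± 0.25 (adjusted p = 0.875). GDF15, a secreted stress cytokine in the same list, read 350, 298 and 289 with the combination, against 313, 380 and 306 with GSK212 alone, overlapping ranges with a change of -0.09 ± 0.49. With the actin ratio as a covariate 18 list members were called, with a median of 1.25, and 16 without arrays of a ratio above 20.

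Transporters and tRNA synthetases followed in part. SLC7A11, the cystine importer, read 807, 961 and 1070 with the combination, against 188, 126 and 165 with GSK212 alone, and rose by 2.55 ± 0.21 (adjusted p = 3.37e-10). The neutral amino acid transporters SLC1A4 and SLC1A5 (a glutamine carrier) rose by 1.52 ± 0.29 and 1.35 ± 0.24. These were the 3 called higher of 14 transporters measured, with 0 called lower, against 0.36% and 0.194% of all genes. The median of the 14 was 0.25. Relative to DMSO, SLC1A5 changed by -1.34 with GSK212 alone (limma adjusted p = 0.00178) and by 0 with the combination. This fall and the rise of 1.35 rest on the same 3 GSK212 arrays. Their actin ratios were 13.7 to 27.4, against 3.95 to 6.98 with DMSO and 3.72 to 12.1 with the combination. The rise was called with the actin ratio as a covariate, and was 1.14 without arrays of a ratio above 20. Relative to DMSO, SLC7A11 changed by 0.22 with GSK212 alone and by 2.77 with the combination. SLC7A5 and SLC3A2, the 2 chains of the leucine transporter, passed the adjusted p at 0.97 ± 0.14 and 0.96 ± 0.16, just below the fold threshold. Of 15 aminoacyl-tRNA synthetases measured, 4 were called higher and 0 lower, against the same 0.36% and 0.194% of all genes, with a median of 0.54. The 4 were WARS1 for tryptophan (1.62 ± 0.24), AARS1 for alanine (1.43 ± 0.17), GARS1 for glycine (1.16 ± 0.17) and SARS1 for serine (1.13 ± 0.17). AARS1 read 3040, 2440 and 2630 with the combination, against 964, 1130 and 903 with GSK212 alone, with no overlap. The ER chaperone list, which marks the unfolded protein response in the endoplasmic reticulum, had a median of 0.01. Of its 20 members 1 was called higher and 0 lower, against 0.36% and 0.194% of all genes. This was the splicing-activated factor XBP1 (1.49 ± 0.35, adjusted p = 0.0185). XBP1 lost its call without any of 5 single arrays (all but replicate 2 of GSK212 alone), with adjusted p of 0.0558 to 0.149. With the actin ratio as a covariate 4 transporters, 5 synthetases and 0 chaperone genes were called, and 1, 2 and 0 without arrays of a ratio above 20. HERPUD1, which acts in ER-associated degradation, changed by 0.80 ± 0.19 (adjusted p = 0.0211), and of 10 heat shock genes 0 were called and 2 had an unadjusted limma p under 0.05 (11.2% of all genes did), with HSPH1 at -0.83 ± 0.17 (adjusted p = 0.0045).

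ERK output genes were lower with GSK436 added. Of 29 measured members 6 were called lower and 0 higher, against 0.194% and 0.36% of all genes, and 25 had a negative change, with a median of -0.72. CCND1, cyclin D1, read 137, 130 and 127 with the combination, against 517, 440 and 479 with GSK212 alone, and 3050 and 2080 with DMSO. It fell by 1.84 on the log2 scale (SE 0.30, adjusted p = 0.000312). IER3, an early response survival gene, read 148, 117 and 148, against 422, 412 and 376 with GSK212 alone, and changed by -1.54 ± 0.18 (adjusted p = 1.38e-06). The groups did not overlap in either gene. The ERK phosphatase DUSP4 read 9.54, 26.9 and 20.4, against 56.8, 56.4 and 58.6 with GSK212 alone, and 792 and 652 with DMSO. DUSP4 changed by -1.56 ± 0.30, its relative DUSP5 by -1.14 ± 0.25, FOSL1, an AP-1 factor, by -1.30 ± 0.29 and EPHA2, a receptor tyrosine kinase, by -1.82 ± 0.48. The combination arrays of DUSP4 lay below the median signal of all arrays, 34.88. With that median as the pseudocount DUSP4 was at -0.79 and DUSP5 at -0.9, short of the fold threshold. DUSP4 also lost its call with only the groups compared (limma adjusted p = 0.101). HMGA2, a chromatin protein, passed the adjusted p at -0.79 ± 0.20.

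Other ERK output genes did not pass the test. DUSP6, the cytoplasmic ERK phosphatase, read 20.6, 24.0 and 15.8 with the combination, against 51.8, 68.6 and 60.7 with GSK212 alone, and 1830 and 1410 with DMSO. Its groups did not overlap, but its change of -1.47 ± 0.57 was not called (adjusted p = 0.274). With the mean of its 3 probe sets it was called, at -2.06 (adjusted p = 0.00129). The ETS factors ETV4 and ETV5 changed by -1.84 ± 0.61 and -0.76 ± 0.58, and the inhibitor SPRY2 by -1.30 ± 0.72, none of them called. MYC read 379, 313 and 293 with the combination, against 225, 274 and 254 with GSK212 alone, a change of 0.38 ± 0.62 that turned to -0.04 with the actin ratio as a covariate. EGR1 had a positive change that was not called, 1.47 ± 0.60. Relative to DMSO, GSK212 alone had lowered 14 of the 29 genes, with a median of -1.80, where 2.78% of all genes were called, 2.15% higher and 0.631% lower. The combination over DMSO called 6.54% of all genes, 4.83% higher and 1.71% lower. With arrays centred on their median the higher share of calls was 41.4% in place of 77.3% for GSK212 alone, and 33.3% in place of 73.9% for the combination. These comparisons share arrays with the one described here. With the actin ratio as a covariate 9 members were called lower, and 2 without arrays of a ratio above 20. Leaving out replicate 1 of the combination left 3. EPHA2 lost its call without any of 5 arrays (all but replicate 1 of the combination; adjusted p 0.114 to 0.232), FOSL1 without any of 4 (all but replicate 3 of GSK212 alone and replicate 2 of the combination; 0.0514 to 0.0726), DUSP5 without any of 3 (replicate 3 of GSK212 alone, replicates 1 and 2 of the combination; 0.0558 to 0.0731) and DUSP4 without replicate 1 of the combination (0.0728).

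DNA replication genes were lower by smaller amounts. Of 31 measured members 3 were called lower and 0 higher, against 0.194% and 0.36% of all genes. At the adjusted p alone 11 members were lower, as were 129 of all 18063 genes. A negative change was seen for 30 members, with a median of -0.55, where the median of all genes was 0.02. RRM2, the regulated subunit of ribonucleotide reductase, read 2500, 2740 and 2650 with the combination, against 6140, 5590 and 4900 with GSK212 alone. It changed by -1.07 ± 0.13 (adjusted p = 2.35e-06). GINS2, part of the replicative helicase, changed by -1.11 ± 0.20 and CCNE2, cyclin E2, by -1.07 ± 0.24. FEN1, PCNA, TYMS, CDC6 and MCM6, which act in flap removal, as the sliding clamp, in thymidylate synthesis and in helicase loading, passed the adjusted p at -0.86, -0.87, -0.87, -0.81 and -0.54. PCNA read 1630, 1470 and 1430 with the combination, against 2840, 2850 and 2570 with GSK212 alone, groups that did not overlap. Of 27 mitosis genes 0 were called by limma, 13 had an unadjusted p under 0.05 (11.2% of all genes did), 26 had a negative change with a median of -0.49, and 4 passed the adjusted p: the kinases AURKA (-0.76 ± 0.13) and TTK (-0.81 ± 0.17), cyclin A2, CCNA2 (-0.78 ± 0.17), and the spindle protein NUSAP1 (-0.62 ± 0.14). Of the 35 genes called lower 10 were in any gene list, and the list counts do not cover the others. In bulk samples fewer cycling cells and less RNA per cell cannot be told apart.

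The replication count was 6 with the actin ratio as a covariate, 2 without arrays of a ratio above 20, and 0 when the probe sets of each gene were averaged. Without replicate 1 of GSK212 alone RRM2 was at -0.99, and without replicate 3 of GSK212 alone GINS2 was at -1 after rounding, both just short of the fold threshold. CCNE2 lost its call without any of 4 arrays (replicates 1 and 2 of GSK212 alone, replicates 1 and 3 of the combination), with adjusted p of 0.0572 to 0.102. The count was 1 without replicate 1 of GSK212 alone.

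**Figure D3:**
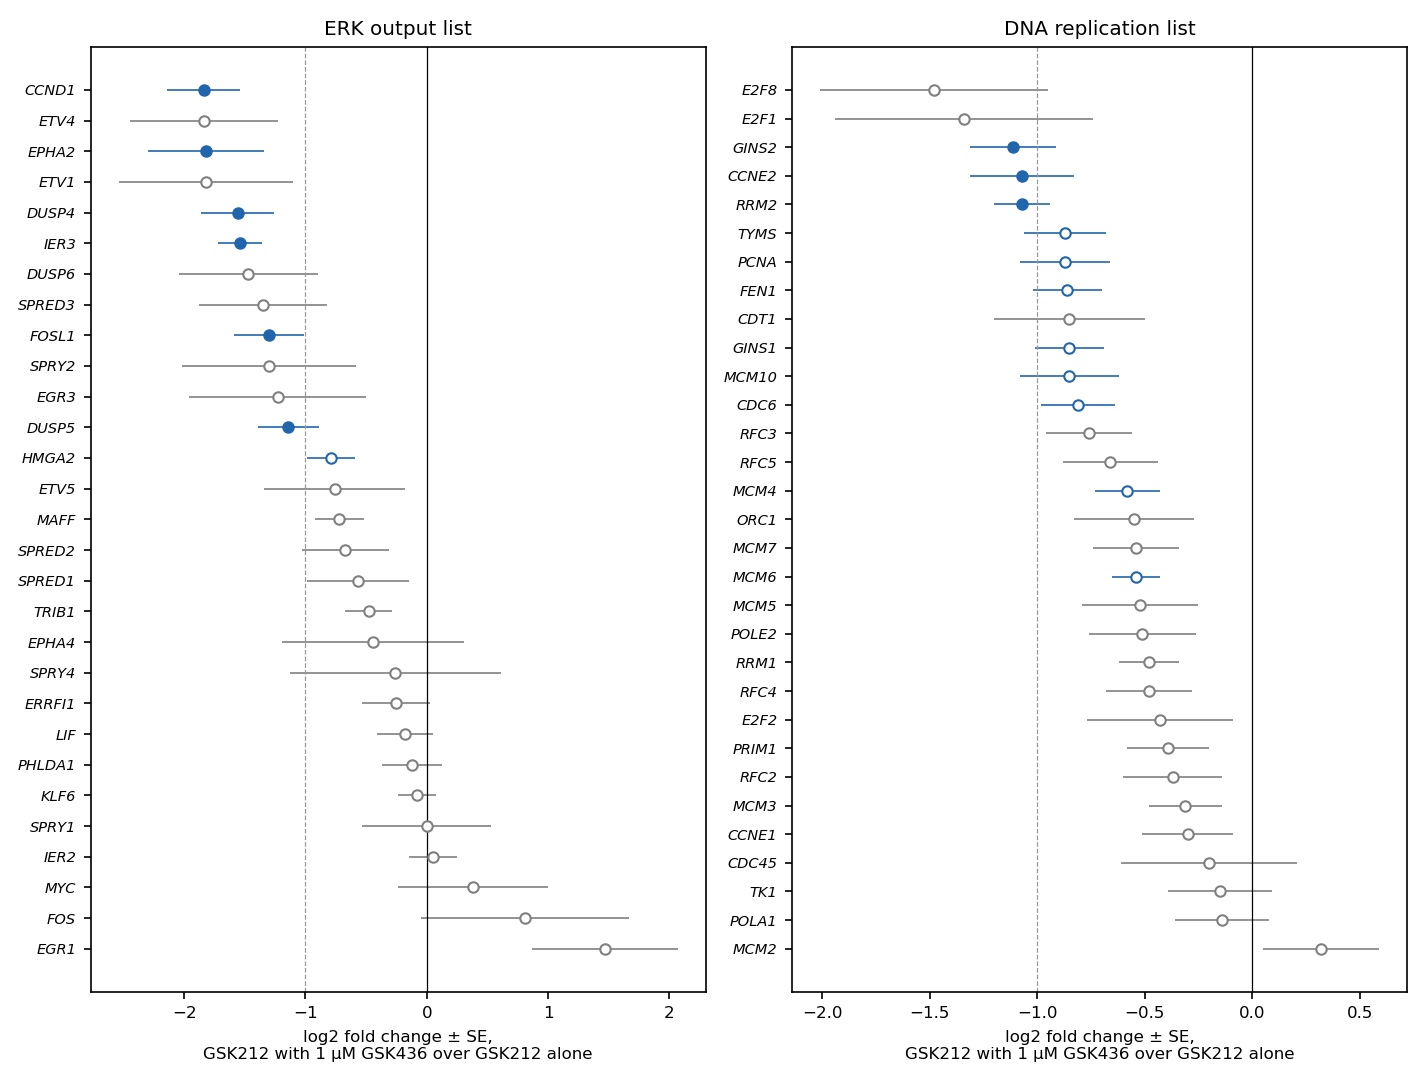
Log2 fold change (x axis, combination over GSK212 alone, with bars of 1 SE) for the 29 measured ERK output genes on the left and 31 DNA replication genes on the right. Filled blue points were called, open blue points passed the adjusted p below the fold threshold and grey points did not pass. On the left 25 points lie below 0 and on the right 30.

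Several other genes fell. PTX3, a secreted pentraxin, read 42.6, 55.4 and 32.9 with the combination, against 235, 185 and 239 with GSK212 alone, and 2350 and 2590 with DMSO, and changed by -2.28 ± 0.20 (adjusted p = 1.67e-09). TRIB2, a pseudokinase related to TRIB3, read 2.54, 2.14 and 2.24, against 61.5, 46.6 and 27.6 with GSK212 alone, and changed by -3.17 ± 0.50 (adjusted p = 0.000197). The combination arrays of TRIB2 lay at background, and its other probe set had a change of 0.12. ENC1, an actin-binding protein, changed by -2.22 ± 0.31, PHLDA2 by -1.70 ± 0.25 and SERTAD4 by -1.76 ± 0.25. The 3 probe sets of PHLDA2 did not all have the same sign. THBS1, thrombospondin, read 762, 1030 and 1040, against 1620, 1720 and 2590 with GSK212 alone, and changed by -1.05 ± 0.21. It lost its call without replicate 3 of GSK212 alone (-0.84) or replicate 1 of the combination (-0.90), and was at -0.39 (adjusted p = 0.674) with the mean of all its probe sets. That mean also ended the calls of TRIB2 (-1.52, adjusted p = 0.152), PHLDA2 (-0.68, 0.533) and SERTAD4 (-1.04, 0.108).

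Other genes that rose included FKBP9, an ER prolyl isomerase, with 2250, 2070 and 2200 for the combination, against 590, 562 and 651 for GSK212 alone. FKBP9 rose by 1.85 ± 0.16 (adjusted p = 1.11e-09), with no overlap of the groups. RHOB, a small GTPase, rose by 1.43 ± 0.17, but was at 0.74 (adjusted p = 0.366) with the mean of all its probe sets, and POLD4, a DNA polymerase delta subunit, by 1.83 ± 0.26. CD24, a surface glycoprotein counted here among epithelial markers, read 1830, 2100 and 2120, against 696, 714 and 628 with GSK212 alone, and 45.2 and 48.9 with DMSO. It rose by 1.57 ± 0.17 (adjusted p = 2.5e-07). CD24 was the 1 member of that list called, of 12 measured, where 0.36% of all genes were called higher. Summed signal of the 12 was 11600 to 12200 with the combination and 10700 to 11100 with GSK212 alone. CNN1, calponin, rose by 2.23 ± 0.46 and lost its call without replicate 3 of GSK212 alone (1.88, adjusted p = 0.0652). CCN5, SPX, CNTN4 and SQOR had changes of 3.29, 2.99, 2.93 and 2.80, at low signals: CCN5 read 73.8, 34.5 and 70.5 with the combination, against 3.5, 4.61 and 1.98 with GSK212 alone. CCN5 lost its call without replicate 1 of the combination (adjusted p = 0.0554), CNTN4 without that array or replicate 2 of GSK212 alone (0.0691 and 0.132) and SPX without any of 3 (these and replicate 3 of the combination; 0.0525 to 0.132). ID2, an inhibitor of helix-loop-helix factors, rose by 1.03 ± 0.23 and lost its call without any of 3 arrays (replicates 1 and 3 of GSK212 alone, replicate 1 of the combination), at 0.86 to 0.96.

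ATF4 genes also differed between the doses of GSK436. At 0, 0.1 and 1 µM GSK436 on 10 nM GSK212, ASNS averaged 742 ± 15.7, 756 ± 176 and 4840 ± 300 (SD, n = 3 each). Of the 31 list members 15 were called higher and 0 lower at 1 µM than at 0.1 µM, against 0.161% and 0.0111% of all genes (29 higher and 2 lower, 0.172% in all). ASNS differed by 2.70, INHBE by 3.58, SLC7A11 by 2.18 and NUPR1 by 1.85 between these doses. ASNS at 0.1 µM overlapped with GSK212 alone, while NUPR1 at 0.1 µM (628, 594 and 565) lay above it. The 2 genes called lower at the higher dose were TRIB2 (-2.39) and PTX3 (-1.13). CCND1 read 210, 244 and 217 at 0.1 µM, between the other doses, and its change from 0.1 to 1 µM of -0.75 was not called (adjusted p = 0.97). RRM2 read 4310, 3880 and 3670 at 0.1 µM, also between them, and differed by -0.58 (adjusted p = 0.0431) from 0.1 to 1 µM. Of the ERK output list 0 of 29 were called by limma between the doses, with 7 at an unadjusted p under 0.05 (4.07% of all genes) and a median of -0.24. The comparisons share the 1 µM arrays, and the actin ratio at 0.1 µM was 11 to 33.3.

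**Figure D4:**
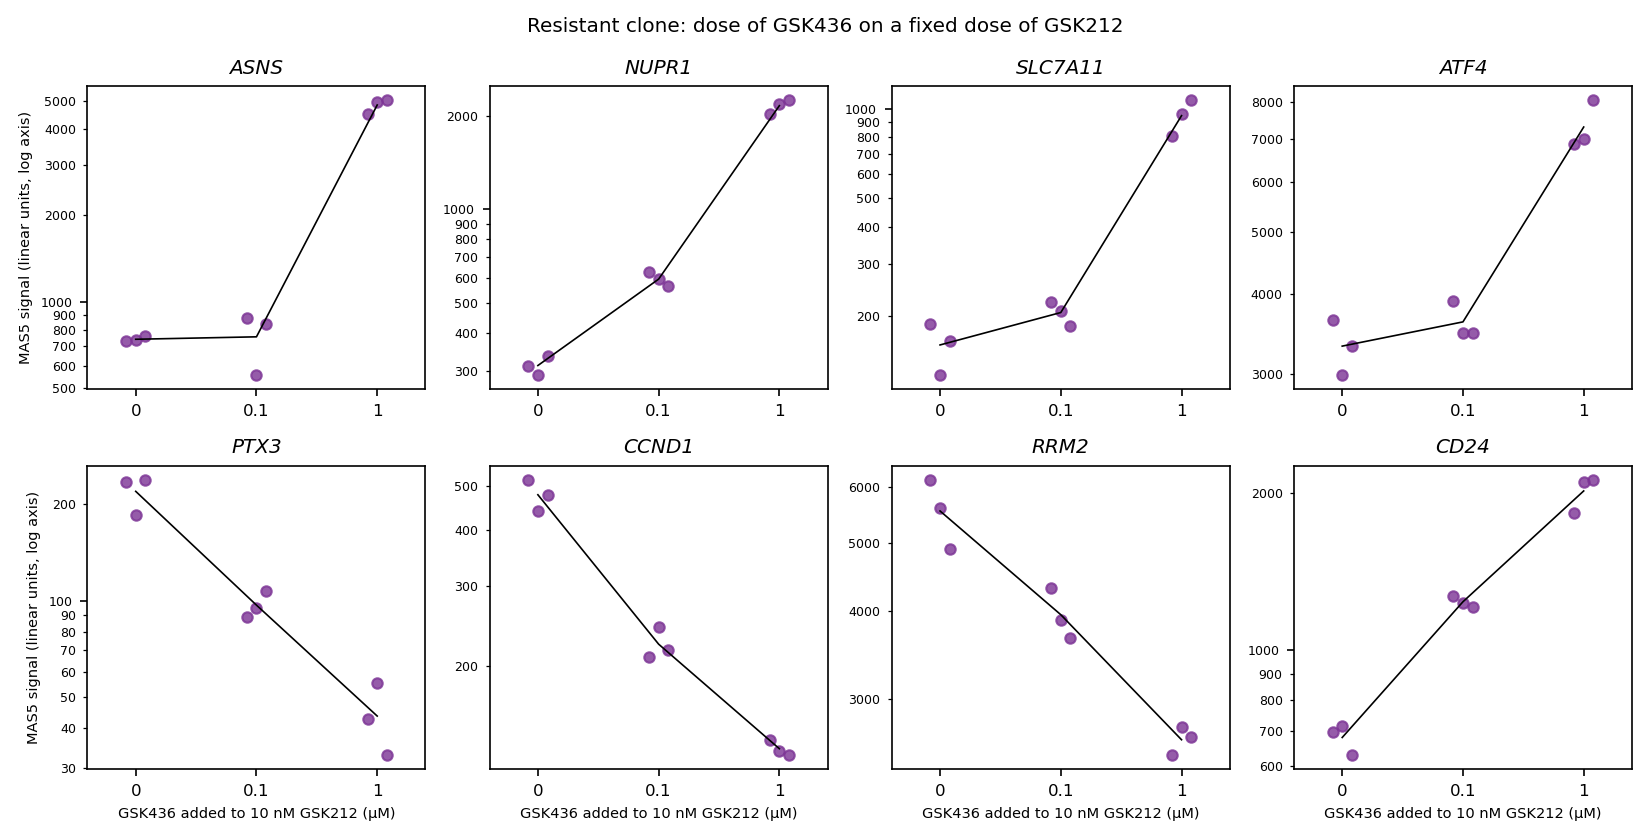
MAS5 signal (linear units on a log axis) of 8 genes in the clone at 0, 0.1 and 1 µM GSK436 on 10 nM GSK212, with a point for each of 3 arrays and a line through the means. ASNS at 0.1 µM (555 to 878) overlaps its level without GSK436, whereas all 3 arrays of PTX3, CCND1, RRM2 and CD24 at 0.1 µM lie between those of the other doses.

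The same GSK436 dose without GSK212 was measured on other arrays of the clone. With 1 µM GSK436 alone over DMSO 13 genes were called higher (0.072%) and 1 lower (0.00554%), 0.0775% in all. All 13 were among the 65 genes called higher in the combination, which is 20% of the 65 and 100% of the 13, and the gene called lower was not among the 35. They included ASNS (2720, 2830 and 2860 with GSK436, against 763 and 700 with DMSO), with a change of 1.94, beside 2.70 on GSK212. INHBE changed by 4.34, CTH by 2.13, SLC7A11 by 2.22 and NUPR1 by 2.22. ATF4 changed by 0.82 (adjusted p = 0.0101), below the fold threshold. The ATF4 list had a median of 0.86, with 8 of 31 called higher and 0 lower. Of the ERK output list 0 of 29 were called by limma with GSK436 alone, with 2 at an unadjusted p under 0.05 (3.22% of all genes) and a median of -0.36: CCND1 read 1830, 1710 and 1670, against 3050 and 2080 with DMSO, a change of -0.54 that was not called. Of 31 DNA replication genes 0 were called, 1 had an unadjusted p under 0.05, and the median was 0.01. Over all 18063 genes the change with GSK436 alone and the change on GSK212 had a Pearson correlation of 0.05.

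The difference between the change on GSK212 and the change without it was called for 8 genes (0.0443%), 6 with a positive (0.0332%) and 2 with a negative difference (0.0111%). PTX3 had a difference of -1.85 ± 0.30 (adjusted p = 0.00388), from -2.28 on GSK212 and -0.43 without it. RRM2 had one of -1.15 ± 0.20 (adjusted p = 0.00736), from -1.07 and 0.08. Of the ATF4 list 0 of 31 were called by limma and 4 had an unadjusted p under 0.05 (5.56% of all genes), and INHBE differed by 0.04 and ASNS by 0.76 (adjusted p = 0.325). CCND1 differed by -1.30 (adjusted p = 0.649). The count for this difference ran from 0 to 47 over other settings and from 0 to 9 without single arrays, so it depended on them, and DMSO had 2 arrays.

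Parental cells given the same drugs allowed the comparison to be made on other arrays. The combination over GSK212 alone called 47 genes higher (0.26%) and 15 lower (0.083%) there, 0.343% in all. The higher share of these calls was 75.8%, 64.9% with quantile normalization, and 51.5% (17 higher and 16 lower) without arrays of an actin ratio above 20. Of these, 22 of the higher genes were shared with the clone, 33.8% of the clone's 65 and 46.8% of the parental 47, and 1 of the lower genes, the matricellular gene CCN3, 2.86% and 6.67%. In parental cells 52 of the clone's 65 higher genes had a positive change (56% of all genes did). A negative change was seen for 25 of its 35 lower genes (44% of all genes). Over all 18063 genes the changes in the 2 lines had a Pearson correlation of 0. The ATF4 list had 19 of 31 called higher and 0 lower in parental cells, with a median of 1.32. ASNS read 4550, 4480 and 4380 in parental cells with the combination, against 461, 518 and 382 with GSK212 alone, and changed by 3.30, beside 2.70 in the clone. CHAC1 changed by 3.53 and INHBE by 3.93. Of the ERK output genes 0 of 29 were called by limma in parental cells and 5 had an unadjusted p under 0.05 (10.8% of all genes), with a median of -0.05. IER3 passed the adjusted p there at -0.94 (0.00523), below the fold threshold, beside -1.54 in the clone. CCND1 changed by 0.19 in parental cells, beside -1.84 in the clone. Parental CCND1 read 446, 400 and 592 with the combination, against 713, 447 and 224 with GSK212 alone, overlapping groups. The actin ratio ran from 14.9 to 27.5 and from 5.90 to 32.1 in these parental groups.

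**Figure D5:**
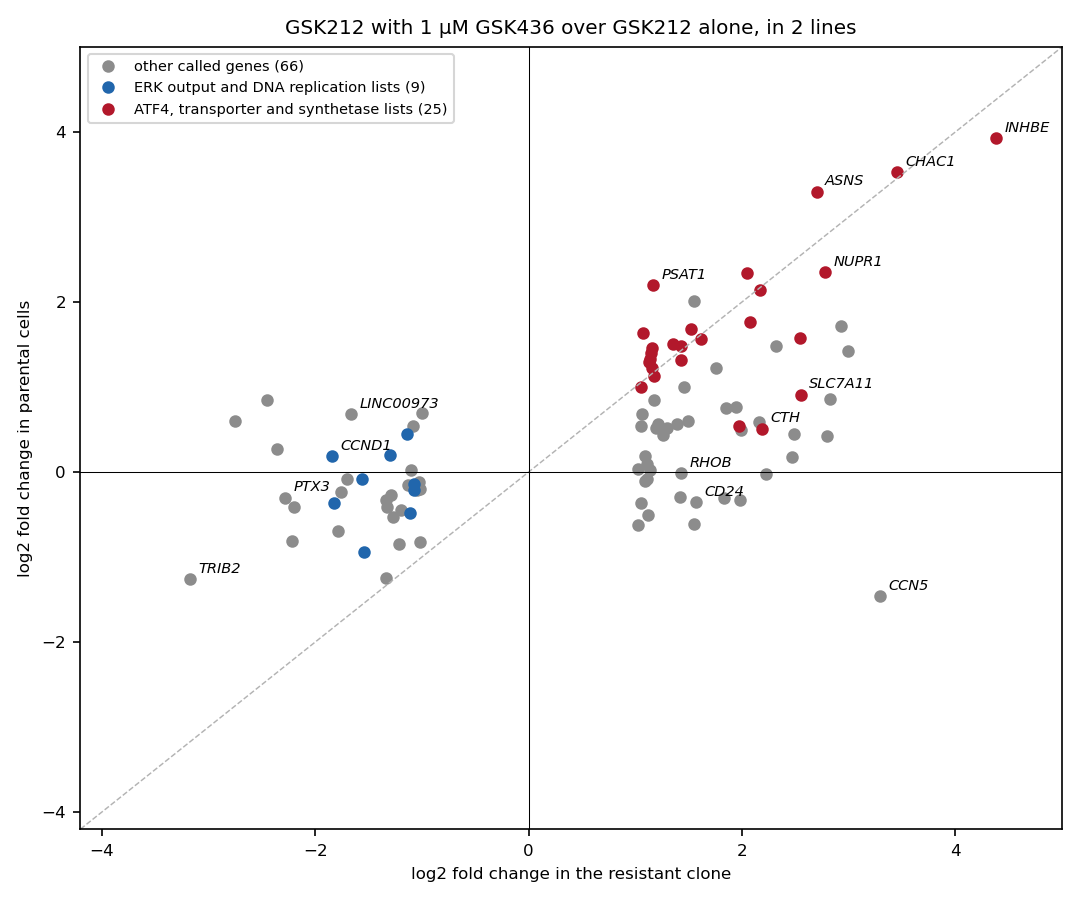
Log2 fold change of the combination over GSK212 alone in the clone (x axis) and in parental cells (y axis) for the 100 genes called in the clone, with the dashed line at equal change. The 25 genes of the ATF4, transporter and synthetase lists (red) run from 1.05 to 4.38 in the clone and from 0.51 to 3.93 in parental cells, and the 9 ERK output and replication genes (blue) run from -1.84 to -1.07 in the clone and from -0.94 to 0.45 in parental cells.

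The difference between the lines in this change was called for 42 genes (0.233%), 24 with a positive (0.133%) and 18 with a negative difference (0.0997%), taken as clone minus parental. The positive share was 57.1%, and 70% with arrays centred. The count depended on the settings: it was 10 with arrays centred, 5 without arrays of an actin ratio above 20, 159 with array weights and 13 to 51 without single arrays. Of the 18 genes with a called difference that are named with values, 0 kept it in every setting and without every single array. SLC7A11, MTHFD2, PTX3, CD24, POLD4, RHOB and NREP kept it without any single array, and RHOB was at 0.97 (adjusted p = 0.45) with the mean of its probe sets. SLC7A11 differed by 1.64 ± 0.29 (adjusted p = 0.00662): parental cells read 642, 679 and 692 with the combination, against 308, 319 and 457 with GSK212 alone. DDIT4 differed by 1.43 ± 0.29 (adjusted p = 0.0176). Parental DDIT4 read 3190, 3280 and 3440 with the combination, against 2510, 2020 and 2330 with GSK212 alone. In the other direction MTHFD2 differed by -1.19 ± 0.22 (adjusted p = 0.00739), with 1.78 in parental cells and 0.58 in the clone. CCND1 differed by -2.03 ± 0.42 (adjusted p = 0.0205), PTX3 by -1.98 ± 0.28 (0.000281) and DUSP5 by -1.59 ± 0.35 (0.0373). CD24 differed by 1.92 ± 0.24 (adjusted p = 4.23e-05), with 3190, 3590 and 2910 in parental cells for the combination, against 4030, 3960 and 4370 for GSK212 alone. Of the other members of the ATF4 list none differed by the call, and ASNS differed by -0.60 (adjusted p = 0.242).

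Several other gene lists had no called member. Over all genes 11.2% had an unadjusted limma p under 0.05. RAS, RAF, MEK and ERK genes had 0 of 12 called and 1 at an unadjusted limma p under 0.05, with changes from -1.20 to 0.70. Of 30 genes in the receptor tyrosine kinase and ligand list 0 were called and 6 had an unadjusted limma p under 0.05. The receptor tyrosine kinase EPHA2, called lower above, was counted in the ERK output list instead. DDR2, a collagen receptor, passed the adjusted p at 0.96 ± 0.19. By limma 0 were called of 29 interferon response genes (4 at an unadjusted p under 0.05), 20 pigmentation genes (2), 17 p53 targets (6), 14 BCL2 family genes (3), 18 cholesterol and fatty acid synthesis genes (1) and 19 NRF2 genes (6). Of 23 antigen presentation genes HLA-C passed the adjusted p at 0.47 ± 0.12, of 20 lysosome and autophagy genes the receptor SQSTM1 at 0.53 ± 0.12, and of 25 glycolysis and hypoxia genes ADM at -0.84 ± 0.16. Of 14 AP-1 and early response factors 10 had a positive change, with a median of 0.38, and KLF2 (0.88 ± 0.15) and ATF3 (0.86 ± 0.21) passed the adjusted p. FOSL1, called lower above, was counted in the ERK output list instead. CDH2, N-cadherin, passed it at -0.63 ± 0.16 among 19 genes of the invasive melanoma state. With the actin ratio as a covariate 1 member each was called lower among the AP-1, p53 and receptor lists, and 1 higher among the glycolysis, invasive and RAS to ERK lists.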

How the data were processed

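Expression was measured on 38 one-colour arrays with 54675 probe sets, in 14 groups of 2 or 3. The deposited values are MAS5 signal intensity on a linear scale, scaled by the authors, per the submitters' processing notes (MAS5 version not given in the sources used here) and the values, which share 1 trimmed mean of 150. Probe sets naming 1 gene (41097) were used, and those naming several (1801) or none (11777) were left out. Those above the pooled median of 34.88 on at least 2 arrays were kept, and each of 18063 genes was read from its brightest probe set on average. log2(signal + 2.8) was fitted in limma 3.58.1 (R 4.3.3) with a mean for each of the 14 groups, a trended variance (eBayes) and Benjamini-Hochberg adjustment over all genes. All adjusted p-values are from this fit. The added 2.8 shrinks fold changes of genes with low signal, and these changes also depended on the settings. Over 15 other settings SQOR ran from 0.98 to 3.61 and TRIB2 from -4.22 to -1.08. Array number limits the precision. The script was tested on simulated data.

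Groups came from titles and treatments. The members and the 35 gene lists (743 members, 668 measured) were chosen with earlier results of these data known. Genes named were the largest called changes without overlap between groups and leading list members, a selection of those eligible. Of 91 named with values, 22 fell outside this rule and were chosen after their values were seen: ATF4, DDIT3, TRIB3, PSAT1, PSPH, CBS, DDIT4, CEBPG, SESN2, PYCR1, MTHFD2, CEBPB, GDF15, PCNA, TYMS, MCM6, RHOB, FKBP9, ATF5, PPP1R15A, ALDH18A1 and SHMT2. Alternatives changed normalization, pseudocount, filter, probe set summary, variance model, covariates and arrays. The GAPDH covariate was added after the data were seen.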

Additional observations from a re-analysis of the deposited data

Results flagged for a closer look

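The change with GSK436 added to GSK212 differed between the clone and parental cells, by an interaction term in limma, for 18 of the genes named with values. Differences are clone minus parental. Among stress response genes it was 1.43 for DDIT4 (1.97 in the clone, 0.54 in parental cells), 1.64 for SLC7A11 (2.55 and 0.91) and -1.19 for MTHFD2 (0.58 and 1.78). Among ERK output genes it was -2.03 for CCND1 and -1.59 for DUSP5. For other genes with a lower change in the clone than in parental cells it was -1.98 for PTX3, -1.62 for PHLDA2, -2.34 for LINC00973, -1.15 for ADM and -3.60 for COL13A1, a collagen whose change in the clone alone was not called (-1.69, adjusted p = 0.143). For genes with a higher change in the clone it was 4.75 for CCN5, 1.92 for CD24, 2.13 for POLD4, 1.65 for ID2, 1.45 for RHOB, 1.10 for FKBP9, 1.62 for NREP and 1.92 for the complement gene C3 (0.93 in the clone, adjusted p = 0.113).

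The change with GSK436 in the clone also differed between cells with and without GSK212, as the change with it minus the change without it. It was -1.15 for RRM2, -1.85 for PTX3, 2.4 for POLD4, 3.75 for CNN1, 1.40 for NREP, 1.18 for KLF2 and 3.21 for SPOCD1. SPOCD1 changed by 1.07 with GSK212 and by -2.14 without it, neither of them called. Of these 18 and 7 differences 0 kept their call in every setting and without every single array. RHOB (0.97), PHLDA2 (-1.2), ID2 (1.35), MTHFD2 (-1, limma adjusted p = 0.208) and COL13A1 (-1.25) lost theirs between the lines with the mean of all probe sets. The actin ratio, which differed between the groups, moved these counts as given under the processing settings.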

How the results depend on the processing

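Over 15 other settings the 100 called genes became 69 to 248. Counts moved by over 1.5 times with array weights (221), the actin ratio (248) or the GAPDH ratio (200) as a covariate. The called genes kept their sign in every setting that measured them. ATF4 list members called were 15 to 20 over the settings and 16 to 18 without single arrays. ERK output members were 2 without arrays of an actin ratio above 20, and 3 to 4 without single arrays. Replication members were 0 with the mean of all probe sets, 6 with the actin and 5 with the GAPDH covariate, and 1 to 3 without single arrays. The main count was 70 to 88 without single arrays. MYC turned to -0.04 with the actin covariate and GDF15, at -0.17 to 0.01 without single arrays, turned to 0.01 without replicate 2 of GSK212 alone. Members near 0 also turned: ATF5 (0.01) was at -0.03 with quantile normalization, -0.06 centred and -0.17 to 0.17 without single arrays, ALDH18A1 at 0.19 with the mean of probe sets, and PPP1R15A at -0.01 to 0.33 without single arrays. The cause was not tested. Of 53 called genes named with values, 21 kept their call in every setting and without any single array.

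The dose comparison (31) gave 54 with array weights, 47 with the actin covariate, 47 with only the groups compared and 16 to 29 without single arrays. GSK212 over DMSO (502) gave 322 with quantile normalization, 231 without arrays of a ratio above 20, and 262 to 443 without single arrays. The share of higher calls there was 77.3%, and 41.4% with arrays centred, which moved the median of all genes to -0.13 from 0.18. The combination over DMSO gave 813 to 1066 without single arrays, with 73.9% higher and 33.3% with arrays centred. GSK436 over DMSO (14) gave 25 with weights, 22 with the GAPDH covariate and 11 to 14 without single arrays. The difference with and without GSK212 (8) gave 5 centred, 30 with weights, 47 with the actin and 37 with the GAPDH covariate, 0 without arrays of a ratio above 20, 24 with only the groups compared and 0 to 9 without single arrays. The parental comparison (62) gave 140 with weights, 33 without arrays of a ratio above 20, 30 with only the groups compared and 46 to 79 without single arrays. Its share of higher calls was 75.8%, 64.9% with quantile normalization, and 51.5% without arrays of a ratio above 20. The line difference (42) gave 10 centred, 159 with weights, 65 with the actin and 88 with the GAPDH covariate, 5 without arrays of a ratio above 20, 20 with only the groups compared and 13 to 51 without single arrays. Its share of higher calls was 57.1%, and 70% with arrays centred.

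Replicate numbers did not pair the arrays (correlations of same-numbered deviations -0.05 to 0.03). With a replicate block 97 genes were called, 94 of them among the 100. Signals near background limit CHAC1, CCN5, SQOR, TRIB2, DUSP4 and DUSP6.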
